A study of Mus musculus with 12 samples.

Results

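RNA of 4599 cells, a mouse melanoma line, was compared between 2 groups of cells that had been isolated from orthotopic melanomas and are abbreviated TB and PIF in the labels as 2 tumour parts. What the abbreviations stand for is not stated there. The comparison took every gene with a mean FPKM (fragments per kilobase of gene, scaled for library size) of at least 0.5 over all libraries. That kept 12661 of the 56748 genes in the table. Compared were 6 of the 12 libraries of the series, 3 of TB and 3 of PIF. The other 6 libraries, 3 of cells from the tumour part DIF and 3 of cells from lung metastases (Met), entered the estimate of spread and are quoted as levels beside the leading genes. After isolation every group was cultured on the same fibrillar collagen from bovine skin (1.7 mg/ml), for 24 h in 10% serum and then for 24 h in 1% serum before RNA was extracted. The animals' age and strain, any allele they carried and whether a library is a separate tumour are not stated in these sources, so p-values measure the spread between these libraries, which may be technical. The study, by its title, deals with cells that remember the topography of their matrix, and the comparison asks which genes still differ by tumour part after culture on 1 common substrate.

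A melanoma cell can carry several transcription programmes that respond to its surroundings. NRF2 is a transcription factor that drives genes of glutathione, thioredoxin and NADPH supply when oxidants or electrophiles inactivate its partner KEAP1. ATF4 drives amino acid uptake and synthesis genes when amino acids run short or when misfolded proteins load the endoplasmic reticulum (ER), and ATF6 and XBP1 drive the ER chaperones. Serum response factor (SRF) with its partner MRTF drives actin and contractile genes, and MRTF enters the nucleus when cytoplasmic actin monomers become scarce. Cells that spread and pull on collagen form integrin adhesions, and secrete enzymes that fold, cross-link or cut the matrix.

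Both groups were sequenced to a like depth, with 15.5 to 18.4 M rebuilt reads over the 12 libraries. Reads of mitochondrially encoded genes took 0.497 to 0.546% of a TB library and 0.490 to 0.728% of a PIF library. The labelled cell type was checked against 12 melanoma and neural crest genes. Sox10, the neural crest transcription factor, stood at 230.4 ± 28.3 FPKM in TB and 248.5 ± 26.3 FPKM in PIF (SD, n = 3). S100b, a neural crest calcium-binding protein, stood at 82.7 ± 9.17 FPKM in TB and 66.2 ± 7.87 FPKM in PIF. The pigment genes Tyr, Tyrp1, Dct and Mlana did not exceed 0.213 FPKM in any of the 6 libraries, and Pmel lay at 0.555 to 1.03 FPKM. Of the 5 members tested, 1 was called, Gpnmb, which rose from 93.5 ± 3.44 to 170.3 ± 25.3 FPKM. Mitf went the other way without a call, from 15.15 ± 0.622 to 11.1 ± 2.405 FPKM. Most markers of other cell types were at or near 0. Of 10 leukocyte markers, 5 were at 0 in all 6 libraries, and the list summed to 1.97 ± 0.412 FPKM in TB and 2.32 ± 0.736 FPKM in PIF. All 4 haemoglobin genes were at 0. Of 9 fibroblast markers, 3 were at 0, and the list summed to 10.5 to 11.3 FPKM in TB and 5.52 to 8.95 FPKM in PIF, nearly all of it Col3a1. In bulk RNA fewer cells of a kind and less RNA per cell cannot be told apart.

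Of the 12661 tested genes, 1785 differed between PIF and TB at a Benjamini-Hochberg adjusted p under 0.05 in limma, which is 14.1% of those tested. In PIF 952 were higher (7.52%) and 833 lower (6.58%), and this share is the background against which the gene lists below are read. The median log2 fold change over all tested genes was 0.0002. Most changes were small: the called genes had a median absolute log2 fold change of 0.402, 263 rose and 145 fell by at least 1.5-fold, and 46 rose and 17 fell by at least 2-fold (0.498% of genes tested, both directions). Log2 fold changes are of log2(FPKM + 1), which understates changes of genes with low FPKM. Fewer genes were called without TB replicate 2 (993), without TB replicate 3 (958) or without PIF replicate 1 (1102). Genes named below as risen or fallen kept their call when any 1 of the 6 libraries was left out, unless stated.

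The rises and falls lay at different levels. Genes called higher took 7.06 ± 0.184% of reads in TB and 10.0 ± 0.206% in PIF, and genes called lower took 13.5 ± 0.126% in TB and 10.3 ± 0.151% in PIF (SD, n = 3). Both sets were chosen by their direction in these same libraries, which fixed the direction of these shifts. Among genes with 0.5 to 2 FPKM, 155 rose and 83 fell of 2896 tested. Among the 254 genes with at least 200 FPKM, 12 rose and 40 fell. The abundant genes that fell include cytoskeletal and secreted proteins, described below with their values.

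**Figure D1:**
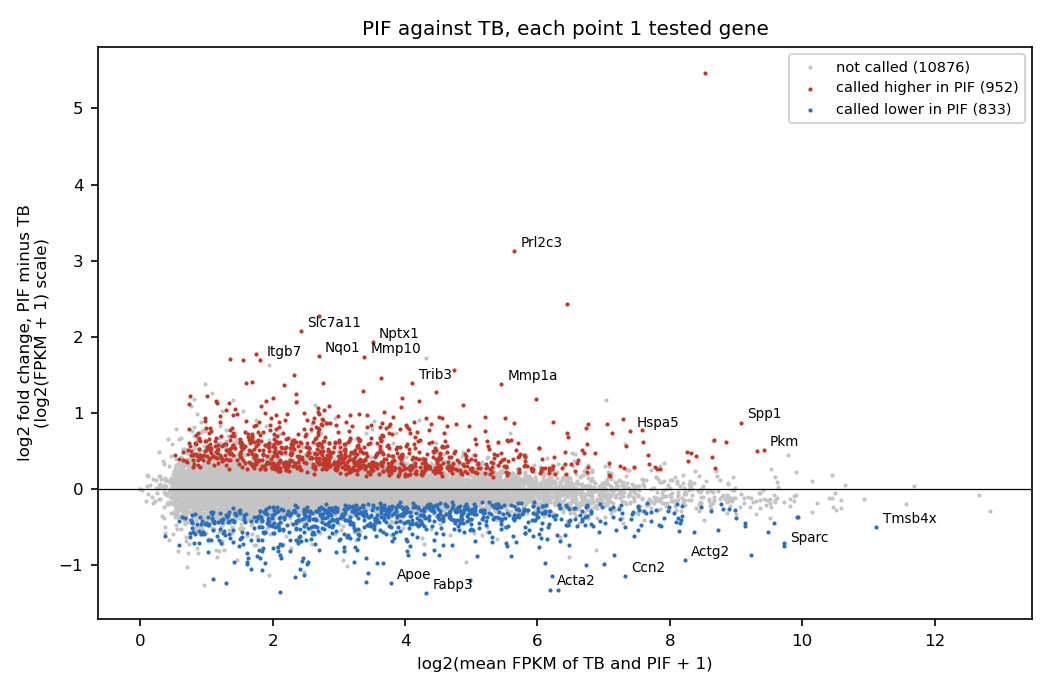
The x axis gives log2 of the mean FPKM of TB and PIF plus 1, and the y axis the log2 fold change of PIF minus TB on the log2(FPKM + 1) scale, with 1 point per tested gene. The 952 red points are called higher, the 833 blue points called lower and the grey points not called. A few red points, Prl2c3 among them, lie far above the rest, and at the right, where genes are most abundant, blue points outnumber red ones.

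Genes of the NRF2 list, many of them antioxidant, rose more often than they fell. Of 39 tested members of the NRF2 list, 18 were higher and 3 lower in PIF, with a median log2 fold change of 0.22. The risen members serve cystine uptake, glutathione synthesis, peroxide removal and the pentose phosphate path. NRF2 binds the antioxidant response element, searched here as TGACNNNGC on both strands in windows of 250 bases before to 50 bases after each start site. It stood in 13 of 42 windows of the list's tested members (31%), in 12.4% of all 32851 windows and in 14.3% of the 11545 windows of tested genes. A match is a description of the letters and not a bound site, and its letters can overlap the AP-1 motif TGANTCA. The stretches of 3 risen members that hold it are shown because these genes are among the risen members, with the match in capitals and the sense strand printed. They are RefSeq sequence of GRCm38.p6, at chr14:118676932-118676991, minus strand for Abcc4, chr3:122245397-122245456, plus strand for Gclm and chr4:116685440-116685499, plus strand for Prdx1.
Abcc4: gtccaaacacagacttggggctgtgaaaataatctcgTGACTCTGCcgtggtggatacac
Gclm: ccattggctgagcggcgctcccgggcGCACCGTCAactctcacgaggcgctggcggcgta
Prdx1: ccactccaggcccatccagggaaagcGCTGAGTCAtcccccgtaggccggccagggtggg

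Slc7a11, the exchanger that imports cystine for glutathione synthesis, lies on chromosome 3, 49846975 to 50398063, minus strand, as the deposited table lists it. Its 3 TB libraries held 1.14, 0.884 and 1.13 FPKM and its 3 PIF libraries 8.38, 6.59 and 8.01 FPKM. The groups did not overlap, which held for 30.7% of all tested genes and was required by some of the rules for naming genes. The rise was the largest of the list (log2 fold change of 2.07 with an SE of 0.14, adjusted p = 2.4e-05 in limma). Gclm, the regulatory subunit of the enzyme that joins glutamate and cysteine, went from 8.21, 8.88 and 8.82 FPKM in TB to 14.1, 16.1 and 12.3 in PIF (log2 fold change of 0.65 with an SE of 0.14, adjusted p = 0.011). Srxn1, sulfiredoxin, which repairs over-oxidised peroxiredoxins, held 28.6, 32.1 and 30.5 FPKM in TB and 55.4, 62.3 and 58.5 in PIF, so that every PIF library stood well above every TB library (log2 fold change of 0.93 with an SE of 0.12, adjusted p = 4.8e-04). Prdx1, one of those peroxiredoxins and an abundant transcript, rose from 317 ± 32.3 to 496 ± 68.1 FPKM (SD, n = 3; log2 fold change of 0.64 with an SE of 0.10, adjusted p = 0.0021). Both branches of the pentose phosphate path, the NADPH-yielding one and the one that rearranges sugars, had a risen member. Pgd, 6-phosphogluconate dehydrogenase, held 18.5, 18.1 and 18.8 FPKM in TB and 35.6, 36.9 and 30.4 in PIF (log2 fold change of 0.85 with an SE of 0.10, adjusted p = 4.4e-04), and Taldo1, transaldolase, rose from 64.4 ± 0.561 to 108 ± 12.5 FPKM (log2 fold change of 0.73 with an SE of 0.13, adjusted p = 0.0034).

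Other risen members were the drug and glutathione-conjugate exporters Abcc4 (0.782 ± 0.197 to 2.47 ± 0.186 FPKM, log2 fold change 0.97) and Abcc1 (2.18 ± 0.232 to 4.15 ± 0.607 FPKM, log2 fold change 0.69), the ferritin heavy chain Fth1 (363 ± 16 to 560.1 ± 79.8 FPKM, log2 fold change 0.62) and the autophagy receptor Sqstm1 (286 ± 7.82 to 387 ± 6.73 FPKM, log2 fold change 0.44). PIF replicate 3 was the lowest PIF library for Fth1 and for Pgd, and still above every TB library. Ugdh, UDP-glucose dehydrogenase, went the other way, from 29.2 ± 1.41 to 23.4 ± 1.61 FPKM (log2 fold change of -0.31 with an SE of 0.065, adjusted p = 0.0095). The antioxidant response element stood in a promoter window of Ugdh as well. Outside the list, 2 aldehyde- and alcohol-oxidising enzymes rose from low levels: Adh7 from 0.765 ± 0.206 to 3.65 ± 0.408 FPKM (log2 fold change of 1.40 with an SE of 0.13, adjusted p = 7.6e-05) and Aldh3a1 from 1.496 ± 0.196 to 5.49 ± 0.937 FPKM (log2 fold change of 1.37 with an SE of 0.18, adjusted p = 6.7e-04). Mgst1, a membrane-bound glutathione transferase, fell from 1.97 ± 0.302 to 0.311 ± 0.0926 FPKM (log2 fold change of -1.18 with an SE of 0.10, adjusted p = 7.3e-05). Levels in the other groups differed from gene to gene: Srxn1 was at 31.3 ± 5.07 FPKM in DIF and 37.8 ± 4.55 FPKM in Met, whereas Aldh3a1 was at 4.45 ± 1.38 FPKM in DIF and 13.3 ± 2.14 FPKM in Met. PIF exceeded DIF in Srxn1 by a log2 fold change of 0.90 (adjusted p = 1.9e-04, limma) and Met by 0.63 (adjusted p = 0.0027), in comparisons where 18.9% and 17.6% of all genes were called.

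Genes of the ATF4 and amino acid response had the largest share called higher among the lists with at least 10 tested members. Of 32 tested members 19 were called, all of them higher, with a median of 0.38. This number fell to 12 when TB replicate 2 was left out, and to 10 when TB replicate 3 or PIF replicate 1 was left out. The core of the amino acid response element, TGATGNAA on either strand, stood in 8 of 35 windows of the list (22.9%), in 5 of 13 windows of cytosolic tRNA synthetases (38.5%), in 3.97% of all windows and in 2.1% of those of tested genes. Nupr1, a stress-induced chromatin protein, and Aars, the alanine tRNA synthetase, are shown as risen members of each list, with the match in capitals (RefSeq, GRCm38.p6, chr7:126625547-126625606, minus strand and chr8:111033704-111033763, plus strand).
Nupr1: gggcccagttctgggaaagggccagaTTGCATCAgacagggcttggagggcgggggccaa
Aars: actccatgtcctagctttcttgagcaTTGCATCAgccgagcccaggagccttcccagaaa

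Trib3, a pseudokinase that ATF4 induces and that damps its activity, lies on chromosome 2, 152179342 to 152185952, minus strand in the deposited table. It stood at 8.13, 8.73 and 8.67 FPKM in TB and at 26.4, 20.4 and 25.1 FPKM in PIF. All PIF libraries exceeded all TB libraries by a wide margin (log2 fold change of 1.39 with an SE of 0.21, adjusted p = 0.0014, limma). Nupr1 rose from 3.93 ± 0.435 to 8.03 ± 1.24 FPKM (log2 fold change of 0.87 with an SE of 0.20, adjusted p = 0.013), Sesn2, a leucine sensor that restrains mTORC1, from 7.68 ± 0.742 to 12.8 ± 1.403 FPKM (log2 fold change of 0.67 with an SE of 0.11, adjusted p = 0.0026), and the transcription factor Atf5 from 66.4 ± 1.84 to 108 ± 8.804 FPKM (log2 fold change of 0.69 with an SE of 0.12, adjusted p = 0.0036). Chac1, which degrades glutathione, rose by 0.93 on the log2 scale but lost its call without TB replicate 2, TB replicate 3 or PIF replicate 1. In DIF and Met, Trib3 lay below TB, at 4.11 ± 1.12 FPKM in DIF and 3.33 ± 1.26 FPKM in Met.

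Several amino acid and sugar carriers rose. Of 21 tested solute carriers of amino acids and glucose, 10 were called, all higher (median 0.38), and part of them stand in the ATF4 list too. Without TB replicate 3 or PIF replicate 1, 1 member was lower. Slc7a3, a carrier of cationic amino acids, held 2.102, 1.94 and 1.97 FPKM in TB and 4.95, 4.12 and 4.59 in PIF (log2 fold change of 0.88 with an SE of 0.086, adjusted p = 9.9e-05). The neutral amino acid carriers Slc1a4 and Slc38a2 rose from 5.06 ± 0.722 to 8.37 ± 1.51 FPKM and from 21.4 ± 1.35 to 30.3 ± 3.07 FPKM. Slc6a8, the creatine carrier, rose from 36.9 ± 3.77 to 58.2 ± 4.79 FPKM (log2 fold change of 0.65 with an SE of 0.10, adjusted p = 0.0013). The cytosolic tRNA synthetases, which load amino acids onto tRNAs, shared the direction with smaller sizes: 8 of 20 were called, all higher (median 0.12), though 4 without TB replicate 1, TB replicate 2 or PIF replicate 1 and 5 without TB replicate 3. Rars, Wars, Aars and Sars, for arginine, tryptophan, alanine and serine, kept their calls at log2 fold changes of 0.48, 0.43, 0.36 and 0.28. Aars, for example, held 40.8, 39.5 and 40.01 FPKM in TB and 53.7, 51.5 and 50.4 in PIF.

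Synthesis of nucleotides and of 1-carbon units held no called rise. Of 21 tested members 2 were called, both lower, Prps1 and Paics, which supply phosphoribosyl units and purine rings, by 0.34 and 0.22 on the log2 scale. Prps1 lost its call without TB replicate 2, and Paics without TB replicate 2, TB replicate 3, PIF replicate 1 or PIF replicate 3. Without TB replicate 1, 2 members were higher.

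**Figure D2:**
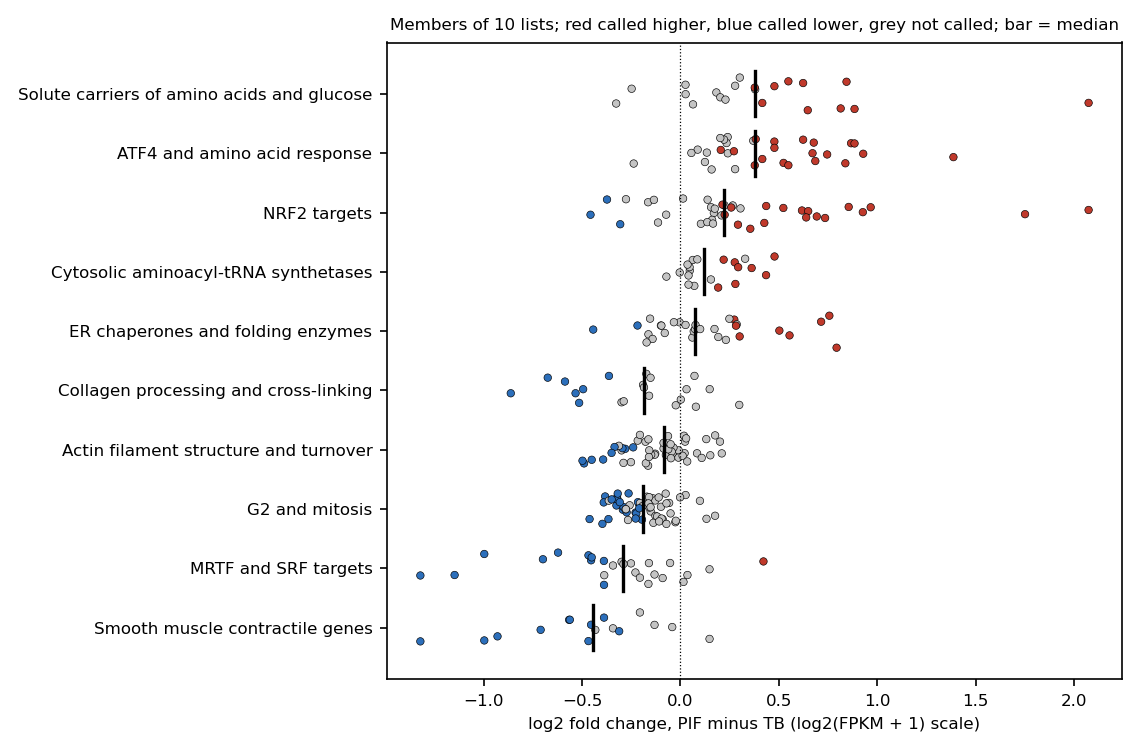
Each point is 1 tested member of the list named at the left, placed on the x axis by its log2 fold change of PIF minus TB on the log2(FPKM + 1) scale, with the vertical scatter within a row only for legibility. Red points are called higher, blue called lower and grey not called, and the bar is the list's median. The carrier and ATF4 lists have medians of 0.38 and 0.38, and the smooth muscle list one of -0.44.

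Protein folding genes of the ER moved in both directions. Of 30 tested ER chaperones and folding enzymes 8 were higher and 2 lower (median 0.075). The count moved to 5 higher without TB replicate 1 or 3 or PIF replicate 1 and 1 lower without TB replicate 2 or 3. The ER stress response element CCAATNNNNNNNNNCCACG, searched on both strands, stood in 8 of 31 windows of this list (25.8%), in 0.119% of all windows and in 0.13% of those of tested genes. The window of Hspa5, a risen member, holds it as shown in capitals (RefSeq, GRCm38.p6, chr2:34772004-34772063, plus strand).
Hspa5: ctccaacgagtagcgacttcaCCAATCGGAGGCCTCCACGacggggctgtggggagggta

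Hspa5, the main ER Hsp70 chaperone, held 122, 127 and 123 FPKM in TB and 221, 181 and 231 FPKM in PIF, with PIF replicate 2 the lowest of its group and above all of TB (log2 fold change of 0.76 with an SE of 0.087, adjusted p = 3.0e-04, limma). Hyou1, its partner in nucleotide exchange, and Dnajb9, a cochaperone, rose from 11.1 ± 0.657 to 20.2 ± 3.298 FPKM and from 18.1 ± 0.577 to 27 ± 1.399 FPKM. Ero1a, the oxidase that restores protein disulphide isomerase, went from 8.23, 8.69 and 8.74 FPKM to 15.5, 13.8 and 14.7 FPKM (log2 fold change of 0.71 with an SE of 0.060, adjusted p = 5.9e-05). In the lists of ER-associated degradation, Sel1l, the scaffold of the HRD1 ubiquitin ligase, rose from 6.48 ± 0.619 to 11.02 ± 2.21 FPKM (log2 fold change of 0.67 with an SE of 0.13, adjusted p = 0.0061), with Derl1 (0.29) and Edem1 (0.29), and 5 of 22 tested members were higher. That count was 3 without TB replicate 2, TB replicate 3 or PIF replicate 1, and 8 without PIF replicate 3. Vesicle coats and cargo receptors between ER and Golgi stayed near the background, with 3 of 37 members called, all higher. This changed to 0 higher without TB replicate 2 or 3 or PIF replicate 1, 1 higher without TB replicate 1 or PIF replicate 3 and 1 lower without PIF replicate 2 or 3.

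Several enzymes that mature collagen fell. Of 21 tested members of collagen processing and cross-linking 7 were called, all of them lower, with a median of -0.19, and 1 was higher without PIF replicate 3. Serpinh1, the collagen-specific ER chaperone HSP47 and the most abundant of the fallen members, held 487, 507 and 501 FPKM in TB and 367, 335 and 332 in PIF (log2 fold change of -0.53 with an SE of 0.067, adjusted p = 5.2e-04, limma). Every PIF library lay below every TB library. Fkbp10, a prolyl isomerase that acts on procollagen, fell from 56.6 ± 2.01 to 43.9 ± 4.52 FPKM (log2 fold change of -0.36 with an SE of 0.080, adjusted p = 0.011) and lost its call after quantile normalization. P3h3, a member of the prolyl 3-hydroxylase family, fell from 11.2 ± 0.503 to 7.68 ± 0.475 FPKM. Outside the cell, Pcolce, which speeds removal of the procollagen C-propeptide, fell from 6.27 ± 0.501 to 3.85 ± 0.506 FPKM (log2 fold change of -0.59 with an SE of 0.093, adjusted p = 0.002), and the lysyl oxidase family members Loxl1 and Loxl4, which cross-link elastin and collagen, from 2.87 ± 0.481 to 1.703 ± 0.224 FPKM and from 1.58 ± 0.224 to 0.6105 ± 0.0364 FPKM. Loxl2 fell by 0.86 on the log2 scale and lost its call without TB replicate 1, 2 or 3 or PIF replicate 2. The ER cyclophilins moved alike: Ppib, which shares the hydroxylation complex of collagen, fell from 76.4 ± 3.13 to 55.9 ± 3.15 FPKM (log2 fold change of -0.44 with an SE of 0.066, adjusted p = 0.0013) and Ppic, cyclophilin C, from 157, 172 and 179.7 FPKM in TB to 83.5, 91.6 and 79.2 FPKM in PIF (log2 fold change of -0.99 with an SE of 0.080, adjusted p = 5.1e-05). In the same cells, Hspa5 and Serpinh1, both abundant ER chaperones, differed in opposite directions. In DIF and Met, Pcolce stood above both groups, at 18.01 ± 1.45 FPKM in DIF and 9.97 ± 0.879 FPKM in Met.

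Genes of glucose uptake and of lactate transport were among the rises in carbon metabolism. Of 22 tested glycolysis genes 8 were higher and 3 lower (median 0.24). Counts shifted to 1 lower without TB replicate 2 or 3 or PIF replicate 1 or 2. Slc16a1, the carrier MCT1, which moves lactate across the membrane, held 15.6, 15.5 and 14.5 FPKM in TB and 28.6, 28.5 and 32.5 in PIF, with tight groups far apart (log2 fold change of 0.93 with an SE of 0.073, adjusted p = 5.1e-05, limma). Hk1, hexokinase 1, and Eno2, an enolase, rose from 47.01 ± 1.52 to 56.6 ± 2.67 FPKM and from 9.65 ± 0.303 to 13.7 ± 0.767 FPKM. Pkm, pyruvate kinase, rose by 0.51 on the log2 scale, a call lost without TB replicate 2 or TB replicate 3. Pfkp, the platelet-type phosphofructokinase, fell from 31.96 ± 0.588 to 23.8 ± 1.46 FPKM (log2 fold change of -0.41 with an SE of 0.069, adjusted p = 0.0026). The hypoxia list had 4 of 20 members called, all higher, with a median of 0.024. Bnip3, a mitophagy receptor, was among them, from 12.2 ± 0.382 to 16.7 ± 1.58 FPKM (log2 fold change of 0.42 with an SE of 0.093, adjusted p = 0.011). That list had 2 higher without TB replicate 2, a median of 0.0019 without PIF replicate 3 and a median of 0.064 without TB replicate 2. The nuclear-encoded respiratory chain had 2 of 45 called, both lower (median -0.10). That became 0 lower without TB replicate 2 or 3 or PIF replicate 1 or 3, 4 lower without PIF replicate 2 and a median of -0.16 without PIF replicate 2. Of the 15 mitochondrially encoded messenger and ribosomal RNAs, 0 were called by limma and 0 by voom, 3 had an unadjusted p under 0.05, and the median was 0.27. Without PIF replicate 2, 5 of them were higher, and without PIF replicate 3 the median was 0.10. The share of mitochondrial reads, at 0.632, 0.490 and 0.728% in PIF, counts the reads of these same RNAs and is no separate measure. What lay behind that median was not tested.

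Some cholesterol synthesis genes rose by small amounts: 8 of 22 tested members were called, all higher (median 0.18). Without TB replicate 1 or TB replicate 2 there were 5, and without TB replicate 3 or PIF replicate 1 there were 4, and 1 was lower without PIF replicate 3. Sqle, squalene epoxidase, held 13.4, 14.02 and 11.5 FPKM in TB and 16.8, 16.1 and 16.4 in PIF (log2 fold change of 0.32 with an SE of 0.066, adjusted p = 0.0079), and Msmo1, a sterol methyl oxidase, rose from 19.1 ± 1.08 to 25.7 ± 0.976 FPKM. Among fatty acid and lipid handling genes 5 of 32 were higher and 4 lower. The count moved to 1 higher without TB replicate 3, 2 higher without TB replicate 2 and 3 higher without PIF replicate 1. Apoe, the apolipoprotein that carries cholesterol out of cells, held 18.02, 19 and 18 FPKM in TB and 7.34, 7.96 and 6.41 in PIF (log2 fold change of -1.24 with an SE of 0.11, adjusted p = 7.6e-05). Its levels elsewhere were lower still, at 5.95 ± 0.733 FPKM in DIF and 1.01 ± 0.291 FPKM in Met. PIF was not called against DIF in Apoe (log2 fold change 0.25, adjusted p = 0.16) and exceeded Met (log2 fold change 2.04, adjusted p = 3.4e-07). Acadm, which begins the breakdown of medium-chain fatty acids, fell from 23.6 ± 1.92 to 16.6 ± 0.947 FPKM (log2 fold change of -0.48 with an SE of 0.064, adjusted p = 6.7e-04). Plin2, a coat protein of lipid droplets, rose from 61.5 ± 1.202 to 74.9 ± 4.06 FPKM.

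Contractile genes of the smooth muscle type had the largest called share of all lists with at least 10 tested members. Of 16 tested members 10 were called, all of them lower (median -0.44). Of 26 tested MRTF and SRF targets, a list that shares genes with it, 1 was higher and 10 were lower (median -0.29). This changed to 0 higher without TB replicate 2 or 3 or PIF replicate 1 or 3 and a median of -0.18 without PIF replicate 3. SRF binds the CArG box, which stood on either strand in 6 of 19 windows of the contractile list (31.6%), in 10 of 29 of the MRTF and SRF list (34.5%), in 1.63% of all windows and in 1.28% of those of tested genes. The boxes of 4 fallen members are shown in capitals for Myl9 and Myl6, both myosin light chains, Filip1l, a filamin-interacting protein, and Vcl, vinculin (RefSeq, GRCm38.p6, chr2:156775278-156775337, plus strand, chr10:128493025-128493084, minus strand, chr16:57549155-57549214, plus strand and chr14:20929148-20929207, plus strand).
Myl9: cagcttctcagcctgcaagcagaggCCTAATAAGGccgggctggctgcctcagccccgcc
Myl6: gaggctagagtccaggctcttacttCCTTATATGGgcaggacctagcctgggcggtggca
Filip1l: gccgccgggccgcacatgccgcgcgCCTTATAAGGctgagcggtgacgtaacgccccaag
Vcl: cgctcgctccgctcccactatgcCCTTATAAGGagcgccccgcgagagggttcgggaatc

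Csrp1, a LIM protein on actin filaments and among the most abundant transcripts here, held 1009, 1072 and 1054 FPKM in TB and 657, 625 and 632 FPKM in PIF. The spread within each group was small against the gap (log2 fold change of -0.71 with an SE of 0.057, adjusted p = 5.1e-05, limma), and the gene lies on chromosome 1, 135647799 to 135679970, plus strand in the deposited table. Actg2, gamma smooth muscle actin, held 386, 390.4 and 396 FPKM in TB and 216, 228 and 174 in PIF, where replicate 3 was the lowest (log2 fold change of -0.93 with an SE of 0.12, adjusted p = 5.5e-04). Myl6 fell from 391.7 ± 19.8 to 266 ± 35.1 FPKM (log2 fold change of -0.57 with an SE of 0.11, adjusted p = 0.0072), Cald1, caldesmon, from 106 ± 3.17 to 81.1 ± 4.86 FPKM, and Vcl, which links talin to actin, from 31.9 ± 2.96 to 23.2 ± 3.04 FPKM. Filip1l fell by 0.70 on the log2 scale. Fibroblasts and pericytes carry contractile genes as well. Their markers Lum, Pdpn and Thy1 were at 0 in all 6 libraries, Myh11 did not exceed 0.0503 FPKM and Col1a1 did not exceed 0.147 FPKM. Other markers of those lists moved in both directions. Col3a1 was at 10.7 ± 0.386 FPKM in TB and 6.86 ± 1.72 FPKM in PIF, a call lost without TB replicate 1, 2 or 3. Mcam was at 239 ± 3.58 FPKM in TB and 179 ± 14.9 FPKM in PIF. Against them, Rgs5 was at 0.372 ± 0.108 FPKM in TB and 2.04 ± 0.254 FPKM in PIF, and Pdgfra at 0.181 ± 0.0276 and 0.384 ± 0.111 FPKM. Dcn and Cspg4 were higher in PIF too, at means of 0.145 and 0.188 FPKM there. The part of these markers in the result was not tested. Lmcd1, a LIM protein of muscle, fell from 13.9 ± 2.89 to 5.93 ± 1.23 FPKM (log2 fold change of -1.10 with an SE of 0.20, adjusted p = 0.0039). Actg2 stood at 479 ± 38.5 FPKM in DIF and 381 ± 56.5 FPKM in Met, and PIF lay below both (adjusted p = 2.2e-05 and 3.0e-04).

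The other cytoskeleton lists had smaller called shares. Of 49 tested actin filament genes 9 were called, all lower (median -0.086), but 2 without TB replicate 2 or TB replicate 3, 3 without PIF replicate 1 and 5 without PIF replicate 3. Tmsb4x and Tmsb10, the abundant thymosins that hold actin monomers, were 0.50 and 0.49 lower on the log2 scale, in calls lost without TB replicate 2, TB replicate 3, PIF replicate 1 or PIF replicate 3. Tmsb4x also lost its call after quantile normalization, where its log2 fold change was -0.21. Msn, moesin, which ties actin to the membrane, fell from 275 ± 4.86 to 233 ± 2.11 FPKM (log2 fold change of -0.24 with an SE of 0.050, adjusted p = 0.0084) and lost its call after quantile normalization. Rnd3, an atypical GTPase that loosens actin stress fibres, fell from 45.1 ± 3.51 to 30.2 ± 3.75 FPKM (log2 fold change of -0.56 with an SE of 0.12, adjusted p = 0.0085), as did Myl12a, a non-muscle myosin light chain, from 102 ± 2.86 to 76.8 ± 6.34 FPKM. Microtubule genes moved in both directions: Tuba1a and Tubb2b, which are abundant in neural cells, fell from 1100.4 ± 10.4 to 855 ± 39.8 FPKM and from 186 ± 3.91 to 131 ± 4.12 FPKM, whereas Tubb4a rose from 2.71 ± 0.319 to 4.41 ± 0.762 FPKM (log2 fold change of 0.54 with an SE of 0.10, adjusted p = 0.0053). In the whole list 3 of 28 were higher and 6 lower. Counts shifted to 1 higher without TB replicate 2 or 3 or PIF replicate 1 and 5 higher without TB replicate 1. Reads of near-identical tubulin copies may be split by the counting. Lmnb1, lamin B1, fell from 47.6 ± 1.05 to 36.4 ± 2.67 FPKM.

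**Figure D3:**
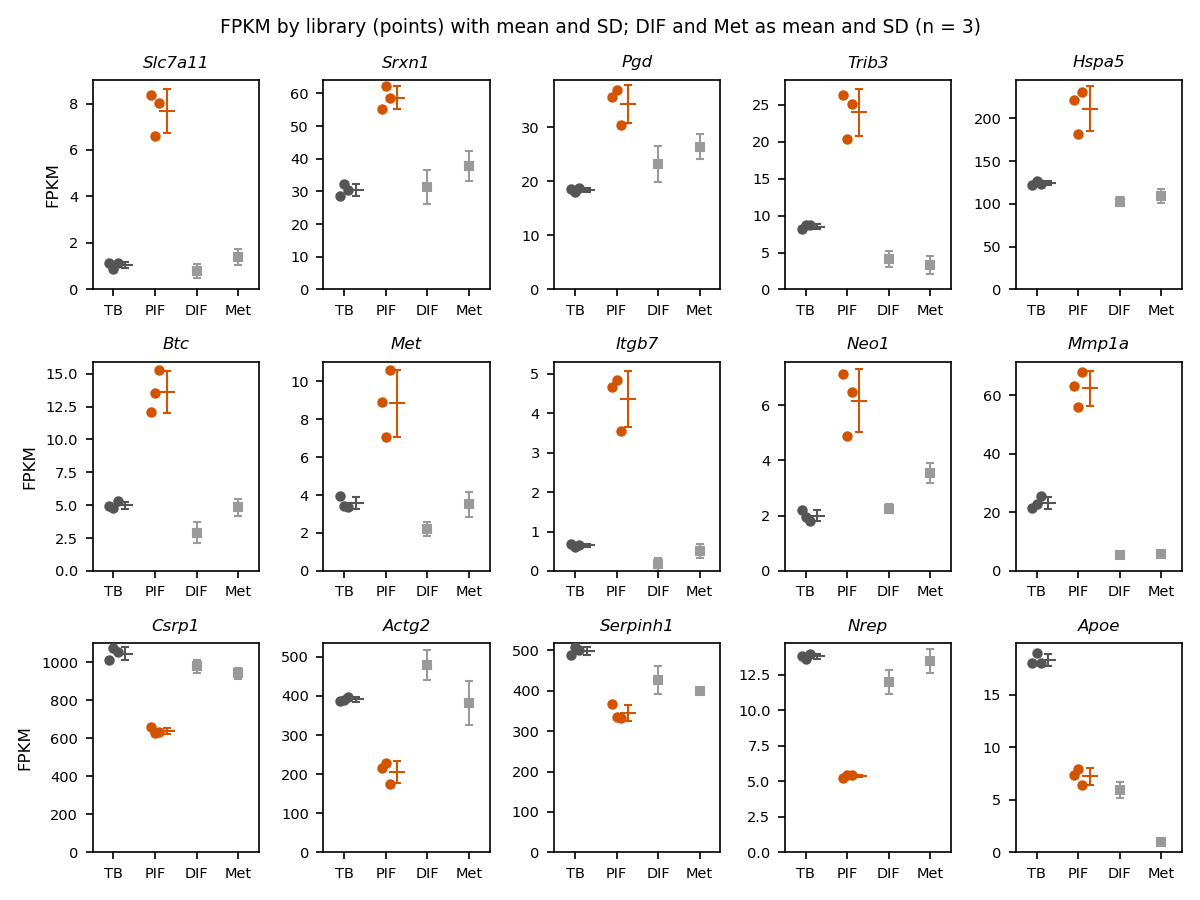
Each panel gives the FPKM of 1 gene on a y axis that starts at 0, with 1 point per library for TB (grey) and PIF (orange) beside the group's mean and SD, and squares with SD for the means of DIF and Met (n = 3). The 3 PIF points lie outside the range of the 3 TB points in all 15 panels, above it in the upper 2 rows and below it in the lowest row. Of all tested genes 30.7% had groups that did not overlap, and some of the rules for naming genes required it.

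Matrix genes moved in both directions. Of 24 tested fibrillar and elastic matrix genes 3 were higher and 6 lower, and of 19 matricellular genes, which code for secreted proteins that tune cell and matrix contact, 5 were higher and 5 lower (3 higher without TB replicate 2). Sparc, which binds collagen, was the most abundant of them in TB and held 1042, 1070.4 and 1059 FPKM in TB and 684, 588 and 622 FPKM in PIF (log2 fold change of -0.75 with an SE of 0.067, adjusted p = 7.3e-05, limma). Fstl1, a secreted relative of follistatin, fell from 102, 101 and 103 FPKM to 49.8, 38.1 and 49.6 FPKM (log2 fold change of -1.14 with an SE of 0.090, adjusted p = 5.1e-05). Against them, Thbs2, thrombospondin 2, rose from 80.1, 76.8 and 69.7 FPKM to 156, 109 and 153 FPKM (log2 fold change of 0.86 with an SE of 0.12, adjusted p = 0.0012), Spp1, osteopontin, from 381 ± 30.02 to 699.6 ± 63.4 FPKM (log2 fold change of 0.87 with an SE of 0.14, adjusted p = 0.0024) and Smoc2, a SPARC relative, from 2.71 ± 0.301 to 8.85 ± 1.82 FPKM (log2 fold change of 1.40 with an SE of 0.25, adjusted p = 0.0035). Spp1 was at 1092 ± 211 FPKM in DIF and 1203 ± 175 FPKM in Met, above PIF (adjusted p = 0.0094 and 0.0029). The list of fibroblast markers summed lower in PIF, as given above, but nearly all of that sum is Col3a1, itself a fibrillar collagen. Lum, Pdpn and Thy1 were at 0 in all 6 libraries. Pdgfra and Dcn were higher in PIF, at means of 0.384 and 0.145 FPKM against 0.181 and 0.0131 FPKM in TB. Col1a1 was lower, at 0.0637 FPKM against 0.0981 FPKM. The part of fibroblasts in the matrix changes was not tested.

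In the fibres, Col8a1, a short-chain collagen, and Efemp2, fibulin 4, which helps elastin assemble, fell by 0.45 and 0.39 on the log2 scale, whereas Emilin1, an elastic fibre glycoprotein, rose from 7.87 ± 0.621 to 15.3 ± 3.18 FPKM (log2 fold change of 0.86 with an SE of 0.15, adjusted p = 0.0032). Ltbp1, which stores latent TGF-beta in the matrix, rose from 9.04 ± 0.687 to 15.97 ± 3.63 FPKM (log2 fold change of 0.73 with an SE of 0.15, adjusted p = 0.0091), and Fbln1, fibulin 1, from 0.6203 ± 0.0839 to 1.39 ± 0.126 FPKM. Basement membrane genes had a median of 0.30, but 1 of 16 passed the test, with 7 higher and a median of 0.48 without PIF replicate 2 and a median of 0.14 without PIF replicate 1. The called gene was Col18a1, the source of endostatin, which rose from 26.1 ± 1.74 to 45.7 ± 9.35 FPKM (log2 fold change of 0.76 with an SE of 0.15, adjusted p = 0.0053). The insulin-like growth factor binding proteins diverged. Igfbp7 held 776, 747 and 785 FPKM in TB and 441, 497 and 342 in PIF (log2 fold change of -0.87 with an SE of 0.14, adjusted p = 0.0022), and Igfbp3 rose from 256 ± 8.55 to 358 ± 12.4 FPKM (log2 fold change of 0.48 with an SE of 0.10, adjusted p = 0.0069).

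Among proteases and their inhibitors 6 of 33 tested members were higher and 3 lower. That became 1 lower without TB replicate 1. Mmp1a, an interstitial collagenase of the mouse that stands outside the list, held 21.5, 22.8 and 25.5 FPKM in TB and 63.2, 55.8 and 67.7 FPKM in PIF (log2 fold change of 1.38 with an SE of 0.10, adjusted p = 2.4e-05). It was at 5.27 ± 0.418 FPKM in DIF and 5.799 ± 0.668 FPKM in Met, below both. Mmp19 rose from 3.22, 3.48 and 3.1 FPKM to 7.43, 7.49 and 7.82 FPKM (log2 fold change of 1.01 with an SE of 0.067, adjusted p = 2.4e-05) and Adamts4, an aggrecan-cutting protease, from 5.05 ± 0.2898 to 10.97 ± 2.16 FPKM. Timp1, an abundant inhibitor of metalloproteinases, rose as well, from 341 ± 18.3 to 456 ± 19.6 FPKM (log2 fold change of 0.42 with an SE of 0.082, adjusted p = 0.0064), as did Serpinf1, the secreted serpin PEDF, from 41 ± 1.903 to 58.9 ± 6.77 FPKM. The membrane protease Adam19 fell from 28.7 ± 2.63 to 16.9 ± 1.86 FPKM (log2 fold change of -0.73 with an SE of 0.092, adjusted p = 5.2e-04), and Adamts8 fell from 6.13 ± 0.344 to 2.48 ± 0.6703 FPKM. Procr, the endothelial protein C receptor, which serves coagulation control, rose from 1.599 ± 0.427 to 6.44 ± 1.86 FPKM (log2 fold change of 1.5 with an SE of 0.23, adjusted p = 0.0014).

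Several proteins that couple integrins to actin fell. Of 32 tested members 5 were higher and 7 lower, with 2 higher without TB replicate 2, TB replicate 3 or PIF replicate 1. The fallen ones include the complex of Lims1 (PINCH1) and Parva (alpha-parvin), which binds integrin-linked kinase. Lims1 held 52.95, 54.4 and 52.1 FPKM in TB and 38.7, 35.8 and 37.4 in PIF (log2 fold change of -0.50 with an SE of 0.052, adjusted p = 1.5e-04, limma), and Parva 24.9, 23.7 and 23.9 and 19.5, 18.3 and 19.1 FPKM (log2 fold change of -0.34 with an SE of 0.051, adjusted p = 0.0015). In both genes the 2 ranges were well apart. Fermt2, kindlin 2, which activates integrins, fell from 49.1 ± 2.08 to 36.2 ± 1.19 FPKM (log2 fold change of -0.43 with an SE of 0.058, adjusted p = 7.7e-04), Tns2, tensin 2, from 10.2 ± 0.1602 to 6.75 ± 0.163 FPKM, and Tgfb1i1, the adhesion adaptor Hic-5, by 0.39 on the log2 scale. Itgb7, a beta subunit best known from lymphocytes, rose from 0.677, 0.605 and 0.669 FPKM to 4.67, 4.84 and 3.54 FPKM (log2 fold change of 1.69 with an SE of 0.13, adjusted p = 5.1e-05). Ptprc, a marker of leukocytes, was at most 0.0186 FPKM in these libraries. Other leukocyte markers moved in both directions. Cd68 was at 1.34 ± 0.315 FPKM in TB and 2.05 ± 0.791 FPKM in PIF, and Lyz2 at 0.547 ± 0.156 and 0.173 ± 0.108 FPKM. The part of such cells in the rise of Itgb7 was not tested.

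Secreted signals rose more often than they fell. Of 29 tested growth and angiogenic factors 10 were higher and 1 lower. Btc, betacellulin, a ligand of the EGF receptor family, held 4.902, 4.78 and 5.31 FPKM in TB and 12.1, 13.6 and 15.3 in PIF (log2 fold change of 1.28 with an SE of 0.13, adjusted p = 1.5e-04, limma). It was at 2.91 ± 0.774 FPKM in DIF and 4.84 ± 0.669 FPKM in Met, and PIF exceeded both (adjusted p = 1.9e-06 and 3.3e-05). Fgf5, a fibroblast growth factor, rose from 0.873 ± 0.145 to 2.22 ± 0.479 FPKM (log2 fold change of 0.78 with an SE of 0.12, adjusted p = 0.002). Pdgfa, the A chain of platelet-derived growth factor, fell from 69.2 ± 1.42 to 55.2 ± 1.04 FPKM (log2 fold change of -0.32 with an SE of 0.058, adjusted p = 0.0038). Ucn2, urocortin 2, a peptide of the corticotropin-releasing family, rose from 10.6, 9.61 and 11.04 FPKM to 19.98, 27.8 and 25.99 FPKM (log2 fold change of 1.15 with an SE of 0.11, adjusted p = 1.2e-04).

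Cytokines of the gp130 family moved in both directions. Il11, interleukin 11, held 11.8, 12.4 and 12.3 FPKM in TB and 35.2, 53.7 and 28.96 in PIF, where replicate 2 was the highest (log2 fold change of 1.56 with an SE of 0.25, adjusted p = 0.0019). Clcf1, cardiotrophin-like cytokine, rose from 7.89 ± 0.566 to 14.8 ± 2.703 FPKM (log2 fold change of 0.82 with an SE of 0.13, adjusted p = 0.002). Lif, leukaemia inhibitory factor, fell by 0.37 on the log2 scale, a call lost without TB replicate 2 or TB replicate 3. The list of gp130 and STAT3 signalling had 3 higher and 2 lower of 22. The count moved to 0 lower without TB replicate 2 and 1 lower without TB replicate 3 or PIF replicate 2. The chemokine Ccl12 rose from 0.213 ± 0.109 to 1.83 ± 0.128 FPKM (log2 fold change of 1.22 with an SE of 0.12, adjusted p = 9.7e-05), and Tslp, an epithelial cytokine, fell from 3.02 ± 0.09097 to 1.07 ± 0.0964 FPKM. Of the NF-kappaB and chemokine list 3 were higher and 1 lower of 20. This changed to 1 higher without TB replicate 2 or 3, 5 higher without PIF replicate 3 and 0 lower without TB replicate 2 or 3 or PIF replicate 3.

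Bmp2 and its antagonist rose side by side. Bmp2, a bone morphogenetic protein, held 2.37, 2.19 and 1.82 FPKM in TB and 5.09, 5.77 and 4.76 in PIF (log2 fold change of 0.99 with an SE of 0.10, adjusted p = 1.4e-04, limma), and Grem1, gremlin 1, which binds and blocks BMPs, held 52.2, 50.3 and 52.5 and 93.5, 88.2 and 108 FPKM (log2 fold change of 0.88 with an SE of 0.13, adjusted p = 0.0011). Bmp2 was at 3.49 ± 0.488 FPKM in DIF and 14.7 ± 1.18 FPKM in Met, and Grem1 at 17.96 ± 2.74 FPKM in DIF and 27.1 ± 4.37 FPKM in Met. The whole list of TGF-beta and BMP genes had 5 higher and 2 lower of 34. Counts shifted to 3 higher without TB replicate 2 or 3 or PIF replicate 1, 0 lower without TB replicate 3 or PIF replicate 1 and 1 lower without TB replicate 1 or 2 or PIF replicate 2. Of 24 WNT pathway genes 3 were higher and 4 lower, or 5 higher without TB replicate 1. The secreted antagonists Dkk2 and Sfrp1 fell, Dkk2 from 6.21, 5.97 and 6.23 FPKM to 3.03, 2.67 and 2.48 FPKM (log2 fold change of -0.94 with an SE of 0.078, adjusted p = 5.4e-05) and Sfrp1 from 8.86 ± 0.787 to 5.27 ± 0.438 FPKM (log2 fold change of -0.65 with an SE of 0.10, adjusted p = 0.0014). The ligand Wnt4 fell from 1.61 ± 0.108 to 0.466 ± 0.114 FPKM, whereas the ligand Wnt7b and the receptor Fzd8 rose from 1.55 ± 0.1495 to 3.32 ± 0.505 FPKM and from 0.9603 ± 0.133 to 1.96 ± 0.281 FPKM. Dkk2 was at 3.43 ± 0.319 FPKM in DIF and 1.25 ± 0.106 FPKM in Met, and PIF exceeded Met (log2 fold change 0.73, adjusted p = 5.5e-05).

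Receptors of growth factors followed in a few cases. The Met gene, which codes for the receptor of hepatocyte growth factor and bears no relation to the sample group of that name, held 3.97, 3.44 and 3.36 FPKM in TB and 8.89, 7.06 and 10.6 in PIF (log2 fold change of 1.09 with an SE of 0.14, adjusted p = 6.7e-04, limma). Flt1, a receptor of VEGF, rose from 4.29 ± 0.414 to 9.51 ± 2.86 FPKM (log2 fold change of 0.96 with an SE of 0.20, adjusted p = 0.0083), with PIF replicate 2 closest to TB. The receptor tyrosine kinase list had 2 higher and 1 lower of 17. That became 0 lower without any 1 library but PIF replicate 3. Dusp4, a phosphatase induced by and acting on ERK, rose from 84.95 ± 9.05 to 129 ± 10.7 FPKM (log2 fold change of 0.59 with an SE of 0.084, adjusted p = 0.001), and Spred3, an inhibitor of the RAS pathway, by 0.48. The ERK feedback list had 4 higher and 2 lower of 21. The count moved to 2 higher without TB replicate 2 or 3 and 1 lower without TB replicate 2 or 3.

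Several guidance molecules of growing axons and genes of the synapse rose. Of 36 tested axon guidance genes 10 were higher and 2 lower (median 0.19), and of 28 neuronal genes 9 were higher and 4 lower (median 0.17). The axon guidance list had 1 lower without any 1 TB replicate or PIF replicate 2 and a median of 0.090 without PIF replicate 1, and the neuronal list 2 lower without TB replicate 1 or 3 or PIF replicate 1 or 2. Among receptors, Neo1, neogenin, which binds netrins and repulsive guidance molecules, held 2.203, 1.96 and 1.82 FPKM in TB and 7.11, 4.901 and 6.49 FPKM in PIF (log2 fold change of 1.25 with an SE of 0.11, adjusted p = 7.3e-05, limma). Its ligand Rgmb rose from 13.5, 13.4 and 12.1 FPKM to 20.8, 19.3 and 20.5 FPKM (log2 fold change of 0.60 with an SE of 0.061, adjusted p = 1.4e-04), and its ligand Ntn4, netrin 4, fell from 17.7, 16.2 and 14.5 FPKM to 10.5, 8.72 and 9.87 FPKM (log2 fold change of -0.68 with an SE of 0.10, adjusted p = 0.001). Nrp2, neuropilin 2, a co-receptor of class 3 semaphorins and of VEGF, rose from 0.907 ± 0.0867 to 2.32 ± 0.168 FPKM, as did the ligand Sema3a, from 1.87 ± 0.184 to 3.91 ± 0.418 FPKM, and Sema4b, from 0.718 ± 0.155 to 1.66 ± 0.187 FPKM.

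Ngef, ephexin 1, an exchange factor that acts downstream of ephrin receptors, was the most abundant of the risen genes named from these lists and held 35.8, 38.3 and 38.4 FPKM in TB and 81.3, 93.3 and 83.5 in PIF (log2 fold change of 1.18 with an SE of 0.20, adjusted p = 0.0032). It was at 13.2 ± 4.45 FPKM in DIF and 17.7 ± 3.76 FPKM in Met. Nptx1, neuronal pentraxin 1, which gathers glutamate receptors at synapses, rose from 4.06, 3.79 and 3.31 FPKM to 18.8, 14.8 and 17.5 FPKM (log2 fold change of 1.93 with an SE of 0.19, adjusted p = 9.7e-05), and its membrane-bound receptor Nptxr from 3.75 ± 0.51 to 7.25 ± 1.13 FPKM (log2 fold change of 0.79 with an SE of 0.11, adjusted p = 8.1e-04). Dner, a neuronal NOTCH ligand, rose from 3.18 ± 0.101 to 7.098 ± 1.65 FPKM and Tmem179 from 7.53 ± 1.15 to 16.1 ± 1.69 FPKM. Dpysl3, a collapsin response mediator protein that bundles actin, fell from 211 ± 3.98 to 138 ± 13.1 FPKM (log2 fold change of -0.61 with an SE of 0.078, adjusted p = 5.6e-04), and Stmn4, a stathmin, by 0.57 on the log2 scale. Aplp1, an amyloid precursor-like protein, rose from 1.45 ± 0.105 to 4.61 ± 0.6504 FPKM.

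**Figure D4:**
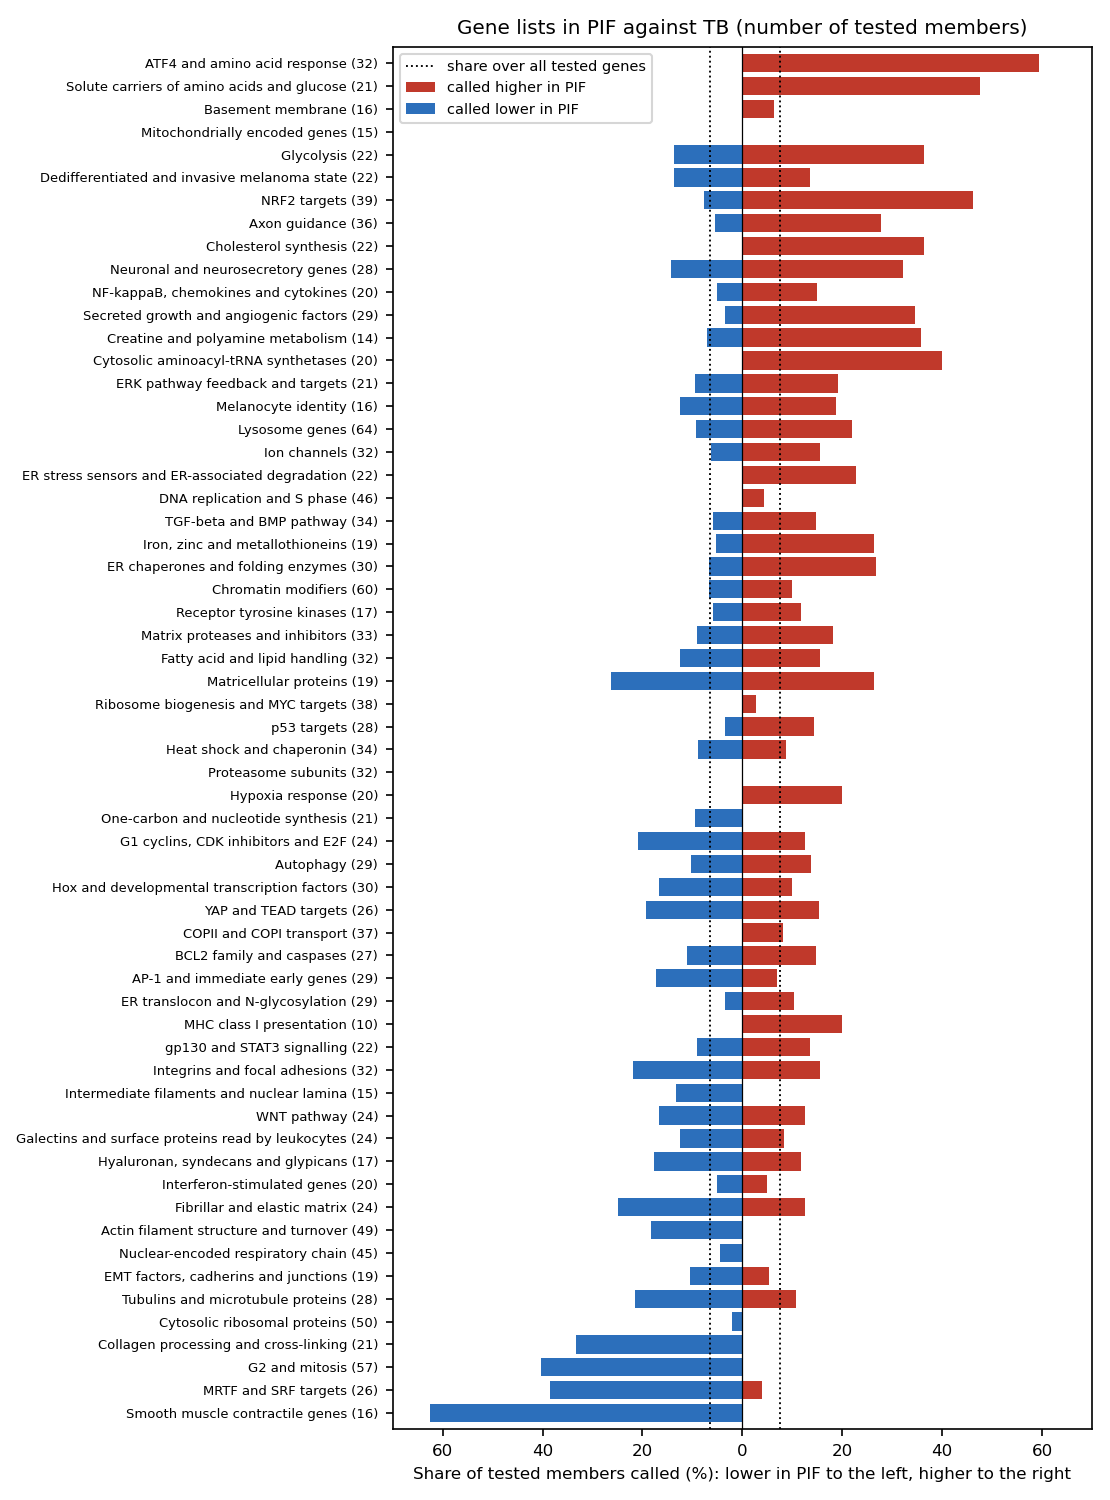
Bars give, for the gene lists reported here with at least 10 tested members (number in brackets), the share of its tested members called higher in PIF to the right (red) and lower to the left (blue), in percent, with the lists ordered by their median log2 fold change. The dotted lines mark the shares over all tested genes, 7.52% higher and 6.58% lower. The ATF4 list reaches farthest to the right and the smooth muscle list farthest to the left, and mitochondrially encoded genes and proteasome subunits have no bar.

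Lysosome genes changed in both directions. Of 64 tested members 14 were higher and 6 lower (median 0.093). Without TB replicate 2 or TB replicate 3 there were 9 higher and 3 lower, and without TB replicate 1 or PIF replicate 2 also 3 lower. Npc1, the lysosomal cholesterol exporter, held 4.096, 4.13 and 3.18 FPKM in TB and 9.44, 6.38 and 7.03 in PIF (log2 fold change of 0.83 with an SE of 0.13, adjusted p = 0.0018, limma). Psap, the precursor of the saposins, rose from 266 ± 15.1 to 371 ± 27.3 FPKM (log2 fold change of 0.48 with an SE of 0.069, adjusted p = 0.0011), Ctsh, cathepsin H, from 3.68 ± 0.3697 to 7.54 ± 1.42 FPKM, and Gla, alpha-galactosidase, from 12.9 ± 0.463 to 18.3 ± 1.05 FPKM. Lgmn, the protease legumain, fell from 73.4 ± 1.47 to 58.8 ± 2.55 FPKM (log2 fold change of -0.32 with an SE of 0.050, adjusted p = 0.002).

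Most of the metal and polyamine genes that passed the test rose, with 5 higher and 1 lower of 19 for iron, zinc and metallothioneins and 5 and 1 of 14 for creatine and polyamines. The first list had 0 lower without any 1 TB replicate and 2 lower without PIF replicate 3, and the second 0 lower without TB replicate 3 and 2 lower without TB replicate 1 or PIF replicate 1 or 2. Tfrc, the transferrin receptor, which imports iron, held 6.94, 7.05 and 6.24 FPKM in TB and 11.1, 10.3 and 11.99 in PIF (log2 fold change of 0.64 with an SE of 0.083, adjusted p = 5.8e-04). Steap3, which reduces the imported iron, rose from 12.1 ± 0.4903 to 18.3 ± 1.09 FPKM (log2 fold change of 0.56 with an SE of 0.062, adjusted p = 2.2e-04), and Slc39a14, a zinc and iron importer, by 0.44 on the log2 scale. Fth1, which stores iron, rose in the same libraries, as given above. Mt1, metallothionein 1, rose from 129 ± 2.55 to 192 ± 24.9 FPKM (log2 fold change of 0.56 with an SE of 0.088, adjusted p = 0.0019). In the polyamine path the decarboxylases Odc1 and Amd1 rose by 0.34 and 0.33, and Smox, spermine oxidase, by 0.45, all on the log2 scale.

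Many genes of G2 and mitosis fell by small amounts. Of 57 tested G2 and mitosis genes 23 were called, all lower (median -0.19), and of 46 replication genes 2 were called, both higher (median 0.082), a share under the background. Without PIF replicate 2 the replication median was -0.0034. Leaving out TB replicate 2, TB replicate 3 or PIF replicate 1 reduced the mitotic count to 8, 10 and 9. Mitotic promoters often carry the cell cycle genes homology region, searched as TTTGAA on both strands. It stood in 32 of 51 windows of the mitotic list (62.7%), in 5 of 44 of the replication list (11.4%), in 17.9% of all windows and in 11.9% of those of tested genes. Cdc20, which activates the ubiquitin ligase of anaphase, and Ckap2, a spindle protein, are shown as fallen members with the match in capitals (RefSeq, GRCm38.p6, chr4:118437344-118437403, minus strand and chr8:22185888-22185947, minus strand).
Cdc20: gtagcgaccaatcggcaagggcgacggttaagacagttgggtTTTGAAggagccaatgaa
Ckap2: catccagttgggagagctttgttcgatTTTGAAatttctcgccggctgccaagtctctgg

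Ttk, the spindle checkpoint kinase MPS1, held 9.17, 9.73 and 9.22 FPKM in TB and 5.83, 7.15 and 6.66 FPKM in PIF (log2 fold change of -0.46 with an SE of 0.067, adjusted p = 0.0011, limma). Kif23, a kinesin of cytokinesis, fell from 12.3, 11.9 and 13.3 FPKM to 8.58, 9.71 and 9.56 FPKM (log2 fold change of -0.40 with an SE of 0.066, adjusted p = 0.0026), Ckap2 from 44.8 ± 2.21 to 34.6 ± 3.23 FPKM and Cenpa, the centromeric histone, from 28.8 ± 1.245 to 23.3 ± 0.476 FPKM. The changes of this list were small, and the largest, that of Ttk, was -0.46 on the log2 scale. Against them, Cdt1, which loads the replicative helicase, rose from 17.01, 16.5 and 17.96 FPKM to 23.8, 27.95 and 23.3 FPKM (log2 fold change of 0.51 with an SE of 0.094, adjusted p = 0.0043), and Cdc6, its partner, by 0.46 on the log2 scale, a call lost without TB replicate 3. E2f7, an E2F repressor that E2F factors induce, rose from 3.04 ± 0.2795 to 4.55 ± 0.412 FPKM (log2 fold change of 0.46 with an SE of 0.083, adjusted p = 0.004). Cdk6, the kinase of D-type cyclins, fell from 6.27 ± 0.723 to 3.91 ± 0.384 FPKM (log2 fold change of -0.57 with an SE of 0.095, adjusted p = 0.0026). Mdm2, the ubiquitin ligase for p53 and a p53 target, rose from 24.7 ± 0.436 to 33.6 ± 0.791 FPKM, while the list of p53 targets had 4 higher and 1 lower of 28. This changed to 2 higher without TB replicate 2 or 3 or PIF replicate 1 and 0 lower without any 1 library but PIF replicate 3.

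**Figure D5:**
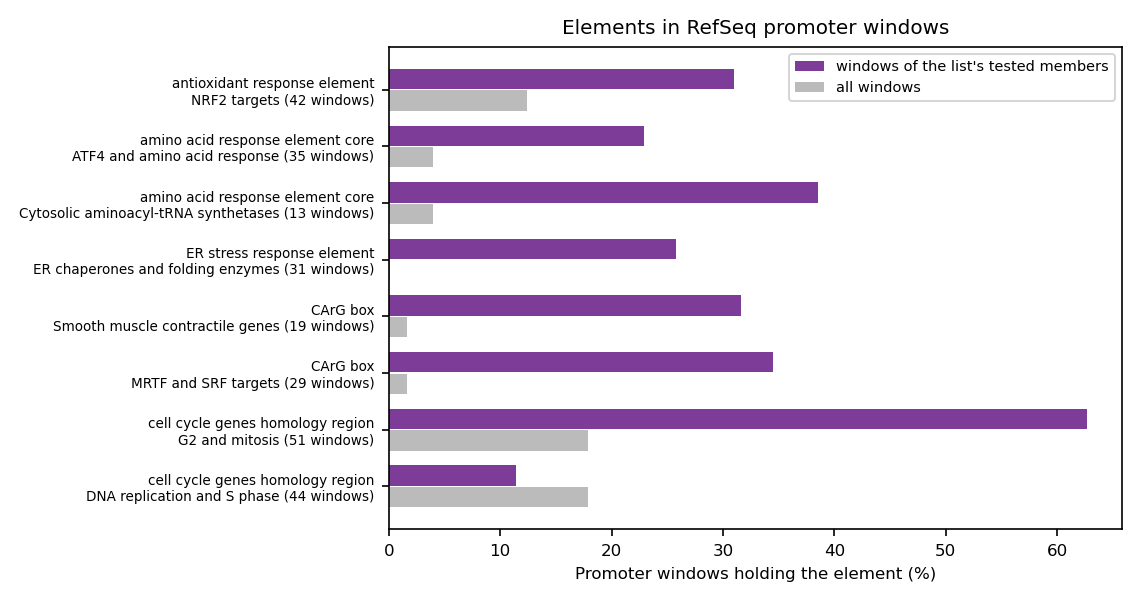
For each element and gene list the purple bar gives the percent of RefSeq promoter windows of the list's tested members that hold the element on either strand, and the grey bar the percent of all 32851 windows. The members' bar is longer in every pair but the last, where the cell cycle genes homology region stands in 11.4% of windows of replication genes and in 17.9% of all, but in 11.9% of those of tested genes, a share the plot does not show. The grey bar of the ER stress response element, 0.119%, is too short to see. The purple bars count members called or not. In windows of called members alone, the element stood in 9 of 25 for the NRF2 list, 5 of 23 for ATF4 and 2 of 4 for the synthetases. It stood in 3 of 10 for ER chaperones, 3 of 11 for contractile genes and 4 of 10 for MRTF and SRF targets. For the mitotic list it was 17 of 21 and for replication 0 of 2.

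Developmental transcription factors moved in both directions. The list of Hox and developmental factors had 3 higher and 5 lower of 30 tested members (26.7% called, against 14.1% of all tested genes), and 6 higher without PIF replicate 2. The T-box factors Tbx15 and Tbx18, known from limb and mesenchyme development, fell, Tbx15 from 4.25, 4.43 and 4.21 FPKM to 2.603, 2.71 and 2.65 FPKM (log2 fold change of -0.54 with an SE of 0.091, adjusted p = 0.0028, limma) and Tbx18 from 3.41 ± 0.139 to 2.298 ± 0.279 FPKM. Foxp1, a forkhead repressor, fell from 7.899 ± 0.271 to 4.96 ± 0.562 FPKM (log2 fold change of -0.58 with an SE of 0.077, adjusted p = 7.0e-04). Runx2, the master factor of bone formation, and Runx1 rose from 1.26 ± 0.236 to 2.46 ± 0.388 FPKM and from 2.399 ± 0.306 to 3.597 ± 0.348 FPKM. Tead4, a partner of YAP, rose from 2.86, 2.15 and 3.12 FPKM to 6.72, 6.87 and 5.54 FPKM (log2 fold change of 1.00 with an SE of 0.17, adjusted p = 0.0026), while the list of YAP and TEAD targets had 4 higher and 5 lower of 26. Among them F3, tissue factor, fell by 0.73 on the log2 scale and Crim1, a membrane protein that binds BMPs, rose by 0.56. Tfap2a, a factor of the neural crest and of melanocytes, rose from 11.3 ± 0.646 to 17.01 ± 0.263 FPKM (log2 fold change of 0.55 with an SE of 0.082, adjusted p = 0.0012), in a melanocyte list with 3 higher and 2 lower of 16. Counts shifted to 5 higher without PIF replicate 2 and 1 lower without TB replicate 3 or PIF replicate 1 or 2.

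Chromatin genes were near the background, with 6 higher and 4 lower of 60. The list had 3 higher without TB replicate 3, 11 higher without PIF replicate 2 and 2 lower without any 1 TB replicate or PIF replicate 1. Hmga2, a chromatin architecture protein of embryonic and tumour cells, rose from 79.7 ± 2.77 to 100.4 ± 4.73 FPKM (log2 fold change of 0.33 with an SE of 0.064, adjusted p = 0.0064), and Brd2, an acetyl-lysine reader, by 0.35 on the log2 scale. Other lists at or under the background were proteasome subunits, with 0 calls among 32 by limma, 0 by voom and 2 at an unadjusted p under 0.05, ribosome biogenesis, with 1 higher of 38 (2 higher without PIF replicate 3, 3 higher without TB replicate 1 and 1 lower without PIF replicate 2), and cytosolic ribosomal proteins, with 1 lower of 50 at a median of -0.12 (0 lower without any 1 library but TB replicate 1 and 2 lower without TB replicate 1). The heat shock and chaperonin list had 3 higher and 3 lower of 34 (1 lower without TB replicate 3), among them Bag3, a cochaperone of Hsp70, at 0.49 and Hspb2, a small heat shock protein of muscle, at -0.62 on the log2 scale.

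Several of the clearest changes belonged to none of the lists. Nrep, a small protein known from neurons and myofibroblasts, held 13.9, 13.6 and 13.98 FPKM in TB and 5.27, 5.44 and 5.43 FPKM in PIF (log2 fold change of -1.22 with an SE of 0.061, adjusted p = 1.7e-06, limma). Its levels of 12 ± 0.829 FPKM in DIF and 13.5 ± 0.829 FPKM in Met were close to TB, and PIF lay below both (adjusted p = 6.0e-07 and 2.3e-07). Pmp22, a myelin membrane protein, fell from 40.9, 42.7 and 45.3 FPKM to 18.9, 14.8 and 21.5 FPKM (log2 fold change of -1.19 with an SE of 0.11, adjusted p = 7.3e-05), and Fxyd1, phospholemman, a regulator of the sodium pump, from 90.8 ± 2.57 to 46.3 ± 6.53 FPKM (log2 fold change of -0.97 with an SE of 0.10, adjusted p = 1.2e-04). Rarres2, the chemoattractant chemerin, fell from 2.52 ± 0.417 to 0.813 ± 0.241 FPKM. The abundant calcium-binding proteins Anxa5 and S100a11 fell from 1089 ± 38.2 to 840.3 ± 27.7 FPKM and from 878 ± 22.4 to 649 ± 74.4 FPKM.

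Among rises outside the lists, Rnf183, a membrane-bound ubiquitin ligase, held 0.298, 0.682 and 0.479 FPKM in TB and 5.48, 4.33 and 2.78 in PIF (log2 fold change of 1.78 with an SE of 0.22, adjusted p = 4.4e-04, limma). Siglec15, a sialic acid receptor, rose from 7.52, 9.35 and 8.26 FPKM to 25.9, 18.1 and 18.2 FPKM (log2 fold change of 1.20 with an SE of 0.19, adjusted p = 0.0023), and was at 4.15 ± 1.102 FPKM in DIF and 4.23 ± 1.13 FPKM in Met. Ptgds, prostaglandin D2 synthase, rose from 0.654 ± 0.149 to 3.396 ± 0.763 FPKM (log2 fold change of 1.40 with an SE of 0.13, adjusted p = 9.7e-05), and Rgs5, a regulator of G protein signalling that also marks pericytes, from 0.372 ± 0.108 to 2.04 ± 0.254 FPKM (log2 fold change of 1.15 with an SE of 0.12, adjusted p = 1.7e-04). Of the other 4 pericyte and smooth muscle markers Mcam, which melanoma cells express too, was lower in PIF at 179 FPKM against 239 FPKM in TB, and Cspg4, Myh11 and Pdgfrb did not exceed 0.240 FPKM in any of the 6 libraries. Esd, an esterase, rose from 107 ± 8.16 to 206 ± 31.9 FPKM (log2 fold change of 0.93 with an SE of 0.18, adjusted p = 0.0057).

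Calls were less frequent outside protein-coding genes. Of 10837 tested protein-coding genes 911 rose and 773 fell (15.5% called), of 679 long noncoding RNAs 22 and 25 (6.92%), and of 820 processed pseudogenes 10 and 27 (4.51%). Wincr1 had the largest rise of the long noncoding RNAs. It was listed at 0, 0.228 and 0.221 FPKM in TB and at 2.35, 5.09 and 1.54 FPKM in PIF, with replicate 2 the highest (log2 fold change of 1.70 with an SE of 0.35, adjusted p = 0.0083). Short genes rose less often: among the 3166 shortest tested genes, of 45 to 2199 bases, 124 rose and 176 fell, against 272 and 202 among the 3165 longest, of 6459 bases and more. On chromosome 3, as the deposited table places genes, 30 rose and 71 fell of 614 tested (16.4% called, median -0.051). On chromosome 19, 43 rose and 17 fell of 444 tested (13.5% called). Both called shares were near the 14.1% of all tested genes, of which 7.52% were higher and 6.58% lower.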

How the data were processed

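RNA of 12 libraries of 4599 cells was sequenced in pairs of 150 bases, per the labels' protocols. The tools were fastp for cleaning, HISAT2 2.0.5 for alignment and featureCounts 1.5.0-p3 for counting, per the submitters' processing notes. Not given in the sources used here are the build, the annotation release and whether counting used strand, so reads of overlapping and antisense genes cannot be told apart. The deposited values are FPKM computed by the authors. In each library, the products of FPKM and length were whole multiples of a fixed step for 100% of values at a tolerance of 0.001 reads, and the counts rebuilt from them summed to 15.5 to 18.4 M per library. Median-ratio size factors of the deposited FPKM were 1.01 in every library, so the values were already scaled to equal median ratios.

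The test was limma 3.58.1 (R 4.3.3) on log2(FPKM + 1) for genes averaging 0.5 FPKM or more, with 1 mean per group over all 12 libraries (8 residual degrees of freedom), an intensity trend, two-sided tests and Benjamini-Hochberg adjustment over 12661 genes at 0.05. The fit was tested on simulated data. Gene lists got counts and medians only. Some genes and 1 gene list are not reported here. The lists, the members and the rule for named genes were chosen with earlier results of these data known. Some named genes were called protein-coding genes without predicted names whose groups did not overlap. Of these, the 25 largest rises and falls and the 15 largest differences of mean FPKM each way were taken. Those under 0.3 FPKM in 1 group and at least 1.5 in the other were taken too. Without the condition on overlap, the 6 smallest p of each list, called or not, and its called members of at least 1.5-fold were added. The 6 largest called long noncoding changes each way were also added, again without that condition. The text names a part of them. Alternatives were another added constant, other filters, voom on the rebuilt reads, quantile normalization, 6 libraries alone, no trend, a replicate block and each library left out. Promoter windows were matched to genes by symbol.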

Additional observations from a re-analysis of the deposited data

How the results depend on the processing

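No named gene changed direction under any of the 14 alternatives in which it was tested. Named genes were chosen by size of change or p in these same libraries, so that the choice itself favoured a stable direction. Of 344 called named genes 231 kept their call when any 1 library was left out, and 229 under every alternative. The number of called genes (1785, 952 higher and 833 lower) was 1132, 607 and 525 with the 6 libraries of TB and PIF alone, where fewer degrees of freedom estimate the spread. With 1 library left out the calls ranged from 958 to 1788, those higher from 489 to 994, those lower from 457 to 794 and those of at least 2-fold from 59 to 81, against 63. The count of at least 2-fold was 192 with an added constant of 0.1 and 222 with voom on rebuilt reads, which add less to low values. voom called 61.5% of its 1946 genes higher, against 53.3% in the main analysis. Its median log2 fold change over all tested genes was 0.0245, against 0.0002 in the main analysis. The part of this offset in the share called higher was not tested. The replicate block called 1901 genes. Deviations of same-numbered TB and PIF libraries correlated at 0.162, 0.0544 and 0.0678, so the numbers were not taken as pairs, although each library correlated best with its own number. Without a filter on low values 1350 genes were called. Among genes of 0.5 to 2 FPKM 8.22% were called, and the part of depth or of the added constant in this was not tested.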
